A study of Mus musculus with 2 samples.

Results

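Igfbp4, Drc1, Jaml, 1700028J19Rik and Akr1c18 were 5 genes, of 32285 listed in the deposited count matrices, that stood higher in Zfp335-deficient than in WT regulatory T cells (Tregs). They were chosen from the KO to WT ratio in these same 2 libraries, so that their higher level in KO is how they were picked and is given below as a description, with no test. Both libraries were made from YFP+ splenocytes of 7-day-old C57BL/6J mice, sorted as CD4+YFP+7AAD-. The WT library came from Foxp3Cre mice, which carry YFP and Cre recombinase under the control of the Foxp3 locus, and the KO library from Zfp335fl/flFoxp3-Cre mice, in which the same Cre deletes the floxed Zfp335 gene in cells that express Foxp3. There was 1 library per genotype, the number of mice behind each was not stated, and every interval below therefore covers counting error only, at the 95% level.

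Foxp3 is the transcription factor that defines Tregs, and Zfp335 is a zinc finger protein of the nucleus. Igfbp4 encodes a secreted protein that binds insulin-like growth factors and is known as a marker of naive T cells in mice. Jaml encodes a junctional adhesion molecule-like receptor of leukocytes that binds the coxsackie and adenovirus receptor (Cxadr) on epithelium and takes part in leukocyte transmigration and T cell costimulation. Drc1 encodes a subunit of the nexin-dynein regulatory complex, a structure of motile cilia, which T cells lack. Akr1c18 encodes 20alpha-hydroxysteroid dehydrogenase, the enzyme that inactivates progesterone.

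The 2 libraries held 14524 WT and 18134 KO barcodes with 64567991 and 65480052 unique molecular identifiers (UMIs), each UMI standing for 1 captured transcript molecule. Barcodes with fewer than 300 genes or over 5% mitochondrial UMIs were left out, and 8053 in WT and 13767 in KO remained, with medians of 5061 and 2713 UMIs. Of these, 7517 WT and 13053 KO barcodes lay in clusters that expressed T cell receptor and CD3 genes, and the rest were erythroid-like, neutrophil-like or B lineage-like. The T-lineage clusters included cluster 16 (43 WT and 9 KO barcodes), which was led by C1qb, C1qa and C1qc of macrophages. The libraries shared 29 of the kept barcode sequences. Zfp335 itself (ENSMUSG00000039834) had 435 UMIs in WT, or 8.03 CPM (7.29 to 8.82), that is, UMIs scaled to a common library total, and 58 in KO, or 1.01 CPM (0.764 to 1.30), which goes with the genotype labels. Foxp3 stood at 40.6 CPM in WT and 44.4 CPM in KO T-lineage barcodes, as the sort implies.

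The genes lie on 5 chromosomes, so that no pair of them shares a neighbourhood. In GRCm38, Igfbp4 (ENSMUSG00000017493) spans chr11:99041244-99054392 on the plus strand, Drc1 (ENSMUSG00000073102) chr5:30281388-30366695 on the plus strand and Jaml (ENSMUSG00000048534) chr9:45079183-45108534 on the plus strand. 1700028J19Rik (ENSMUSG00000038782) spans chr7:44229811-44246695 on the minus strand, and Akr1c18 (ENSMUSG00000021214) chr13:4132615-4150654 on the minus strand. Drc1, Jaml and Akr1c18 shared no 60-base stretch of their annotated transcripts with another gene, whereas Igfbp4 shared 49 of 4383 (1.12%) and 1700028J19Rik 125 of 2517 (4.97%). Antisense genes overlap Jaml (Gm10684) and 1700028J19Rik (Gm36864), and both were listed at 0 UMIs in these libraries.

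The promoters of the most abundant 3 genes are shown because genes that stand together in one contrast may be asked for shared sequence, and these hold different elements. Each window runs from 250 bases before to 50 bases after the annotated start, on the plus strand of GRCm38.p6 as given by RefSeq, and covers chr11:99040994-99041293 for Igfbp4, chr5:30281143-30281442 for Drc1 and chr9:45078933-45079232 for Jaml. Capitals mark matches to the motifs searched.
Igfbp4: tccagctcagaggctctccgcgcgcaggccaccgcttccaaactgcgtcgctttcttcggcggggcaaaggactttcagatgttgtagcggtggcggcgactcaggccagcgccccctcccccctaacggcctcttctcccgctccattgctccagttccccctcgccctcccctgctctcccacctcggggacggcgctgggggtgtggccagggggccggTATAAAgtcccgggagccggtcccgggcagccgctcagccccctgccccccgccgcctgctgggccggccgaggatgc
Drc1: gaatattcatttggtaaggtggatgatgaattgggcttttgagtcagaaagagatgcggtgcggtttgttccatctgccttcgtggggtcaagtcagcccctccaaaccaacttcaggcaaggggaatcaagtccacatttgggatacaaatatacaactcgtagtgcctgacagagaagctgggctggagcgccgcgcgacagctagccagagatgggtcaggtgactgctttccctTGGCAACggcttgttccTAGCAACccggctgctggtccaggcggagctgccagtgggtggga
Jaml: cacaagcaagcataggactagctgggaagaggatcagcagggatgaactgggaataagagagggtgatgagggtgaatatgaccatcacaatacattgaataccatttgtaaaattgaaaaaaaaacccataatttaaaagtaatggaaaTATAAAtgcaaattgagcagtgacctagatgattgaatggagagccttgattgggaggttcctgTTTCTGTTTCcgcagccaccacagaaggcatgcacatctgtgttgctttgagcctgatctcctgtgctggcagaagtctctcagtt
The capitals in Igfbp4 are a TATA box, TATAAA, 28 bases before the start, in a window of 71.3% GC. TATAAA, searched on both strands, was found in 13.6% of all 32851 promoters of the same length, whose median GC content was 52.7%. Jaml holds the same letters 100 bases before its start. The capitals in Drc1 are matches on the reverse strand to GTTGCNA, an arm of the X-box that RFX factors bind at cilia genes, which begin at positions -12 and 5 from the start. 10.4% of all promoters held at least 1 such match, and this motif was chosen after the Drc1 sequence had been read. The later capitals in Jaml are a reverse-strand match to GAAANNGAAA, a core of the interferon-stimulated response element, at position -36, which 3.44% of all promoters held. The C/EBP-ATF response element TGATGCAA (0.895% of promoters) and the cyclic AMP response element TGACGTCA (1.79%) were in none of the 5 windows, and the windows of 1700028J19Rik and Akr1c18 held none of the 5 motifs. For 1700028J19Rik the RefSeq window, chr7:44236073-44236372, lies inside the span given above. Sequence at the far end of that span, 44246695, where a minus-strand gene would begin, was not searched. No searched motif was shared by more than a pair of the genes. A match in this window is a string of letters and was not tested as a binding site.

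Over all kept barcodes the 5 genes had KO to WT ratios between 3.88 and 6.73. Igfbp4 had 2624 UMIs in WT (48.4 CPM) and 13147 in KO (228 CPM), a ratio of 4.71 (4.52 to 4.91). Drc1 had 438 UMIs in WT (8.08 CPM) and 2086 in KO (36.2 CPM), a ratio of 4.48 (4.04 to 4.98). Jaml had 203 UMIs in WT (3.75 CPM) and 838 in KO (14.5 CPM), a ratio of 3.88 (3.33 to 4.55). These 3 genes thus rest on at least 203 molecules in each library, whereas the other 2 were scarce in WT. 1700028J19Rik had 38 UMIs in WT (0.701 CPM) and 272 in KO (4.72 CPM), a ratio of 6.73 (4.78 to 9.72). Akr1c18 had 55 UMIs in WT (1.01 CPM) and 273 in KO (4.74 CPM), a ratio of 4.67 (3.48 to 6.35).

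All 5 genes passed a ratio of 2, which 1.03% of the 10593 genes with at least 200 UMIs did in the same direction. This contrast chose them, so nothing is read from that count. From the highest ratio down, 1700028J19Rik was number 2 of 10593, Igfbp4 number 5, Akr1c18 number 6, Drc1 number 10 and Jaml number 11. In the T-lineage clusters alone, where 1.6% of genes passed a ratio of 2, the 5 ratios were 5.16 for Igfbp4, 4.35 for Drc1, 5.12 for Jaml, 7.03 for 1700028J19Rik and 4.5 for Akr1c18. Jaml moved most between these sets of barcodes, and 66 of its 203 WT UMIs were in neutrophil-like barcodes. Clusters 2, 7 and 9 of the T lineage were shallow and had no T cell receptor or CD3 gene among their leading genes. These included Mpo and haemoglobin genes in cluster 2, Camp and Ngp in cluster 7, and AY036118 and S100a8 in cluster 9. The leading genes of cluster 9 also included the effector Treg markers S100a4 and S100a6 and the histone gene Hist1h1b. Cluster 2 held 4037 KO barcodes (median 1398 UMIs) and 69 WT barcodes. Cluster 7 held 1287 KO and 16 WT barcodes, whereas cluster 9 held 30 KO and 978 WT barcodes (WT median 678.5 UMIs). Without these 3 clusters, an alternative chosen after the data had been seen, the ratios were 5.09, 4.46, 5.49, 7.33 and 3.83 in the same order.

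**Figure D1:**
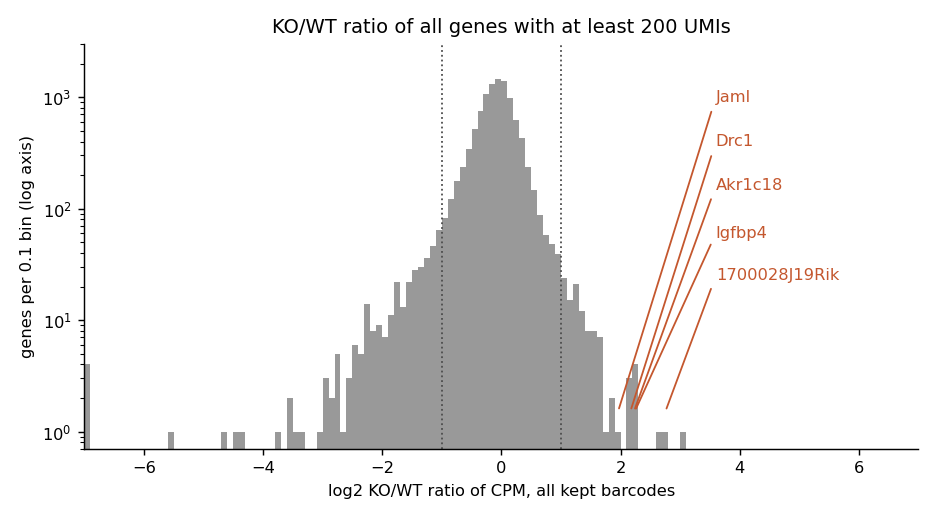
Histogram of the log2 KO/WT ratio of CPM over all kept barcodes for the 10593 genes with at least 200 UMIs, in bins of 0.1, with the number of genes on a log axis and dotted lines at a ratio of 2 in either direction; genes beyond the axis are drawn in its outermost bin. The 5 named genes lie on the far right, between Jaml at 1.96 and 1700028J19Rik at 2.75 on the log2 scale, as the way they were chosen implies.

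Tregs leave the thymus in a resting state and become activated and effector cells in the periphery. Barcodes were therefore divided into classes by markers, in clusters built without the 5 genes: resting Treg-like (2857 WT and 5262 KO barcodes, with markers that include Ccr7, Lef1 and Tcf7), effector Treg-like (1690 and 72, with Klrg1, Cxcr3, Gzmb and S100a4), activated Treg-like (571 and 1135, with Tnfrsf9) and cycling-like (590 and 792, with histone and mitosis genes). Cluster 8 (641 and 380) had effector and mitosis genes together and was left unnamed. Resting Treg-like barcodes were not one population in the 2 libraries: cluster 1 held 4899 of the KO and 457 of the WT barcodes, and cluster 3 held 363 of the KO and 2400 of the WT barcodes. Classes were rebuilt here from markers and are not the study's own annotation.

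In resting Treg-like barcodes Igfbp4 stood at 127 CPM (121 to 134) in WT and 267 CPM (261 to 274) in KO, a ratio of 2.10 (1.99 to 2.23). This was its highest level among the Treg classes in either library and its smallest ratio. Drc1 stood at 15.2 CPM in WT and 40.7 CPM in KO, a ratio of 2.69 (2.28 to 3.18). Jaml stood at 5.75 CPM in WT and 19.9 CPM in KO, a ratio of 3.46 (2.67 to 4.55). Igfbp4, Drc1 and Jaml, the genes with at least 200 UMIs here, all passed a ratio of 2, against 0.487% of the genes measured at that depth. 1700028J19Rik had 8 UMIs in WT and 105 in KO, a ratio of 6.97 (3.41 to 16.6). Akr1c18 had 21 UMIs in WT and 80 in KO, a ratio of 2.02 (1.24 to 3.45). With the minimum lowered to 50 UMIs all 5 passed, against 0.799% of genes. The sums mix 2 clusters in opposite proportions. Within cluster 1 alone the ratios were 2.07 for Igfbp4, 1.80 for Drc1, 1.88 for Jaml and 2.48 (0.816 to 12.3) for Akr1c18, while 1700028J19Rik had 103 KO and 0 WT UMIs, at least 3.27-fold higher against a limit of 3 counts in the WT barcodes. Within cluster 3 alone the ratios were 1.5 for Igfbp4, 2.42 for Drc1, 3.86 for Jaml, 2.89 (0.299 to 14.5) for 1700028J19Rik and 1.29 (0.145 to 5.37) for Akr1c18. Igfbp4 was thus higher in KO within each resting cluster, and its ratio was smaller in cluster 3 (1.26 to 1.77), which held most WT barcodes, than in cluster 1 (1.83 to 2.35). In cluster 3 depth differed, with medians of 3791 UMIs in WT and 1713 in KO. Igfbp4 stood there at 126 CPM in WT and 189 CPM in KO, and RNA of other cells in these levels was not tested.

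Among the named Treg classes, effector Treg-like barcodes had the lowest Igfbp4, at 14.5 CPM (12.4 to 16.8) in WT and 51.1 CPM (32.7 to 76.0) in KO, a ratio of 3.53 (2.20 to 5.42). Drc1 stood at 5.80 CPM in WT and 31.9 CPM (17.9 to 52.6) in KO, a ratio of 5.50 (2.93 to 9.69). These were the genes with at least 50 UMIs there, both passed a ratio of 2, and 3.33% of the genes measured did. The KO values rest on 72 barcodes, with 24 UMIs of Igfbp4 and 15 of Drc1. Jaml had 16 UMIs in WT and 2 in KO, 1700028J19Rik 4 and 5, and Akr1c18 1 and 0, too few to place. Erythroid-like barcodes, used below as the background for RNA of other cells, held Igfbp4 at 10.5 CPM in WT and 63.5 CPM in KO. Both effector Treg-like levels of Igfbp4 were near that background, and their part of RNA from other cells was not tested.

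In activated Treg-like barcodes all 5 genes passed a ratio of 2, against 1.15% of the genes measured. Igfbp4 stood at 36.5 CPM in WT and 162 CPM in KO, a ratio of 4.43 (3.82 to 5.16). Drc1 stood at 4.77 CPM in WT and 29.2 CPM in KO, a ratio of 6.12 (4.09 to 9.52). Jaml stood at 2.39 CPM in WT and 8.02 CPM in KO, a ratio of 3.36 (1.85 to 6.59). 1700028J19Rik had 3 WT and 51 KO UMIs, a ratio of 9.52 (3.08 to 47.7), and Akr1c18 10 WT and 61 KO UMIs, a ratio of 3.42 (1.74 to 7.48). Akr1c18 was the only one of the 5 whose KO level was above that in resting Treg-like barcodes with an interval clear of 1, at 1.69 times (1.19 to 2.39).

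For Igfbp4 the ratio was higher in barcodes with cell division genes than in the named classes above, which did not hold for every gene. In cycling-like barcodes Igfbp4 stood at 24.1 CPM (21.1 to 27.4) in WT and 255 CPM (245 to 266) in KO, a ratio of 10.6 (9.26 to 12.1). Drc1 stood at 6.86 CPM in WT and 43.8 CPM in KO, a ratio of 6.38 (4.92 to 8.39), and Jaml at 2.52 CPM and 11.2 CPM, a ratio of 4.42 (2.82 to 7.17). Igfbp4, Drc1, Jaml and Akr1c18 had at least 50 UMIs and passed a ratio of 2, against 2.88% of genes. Akr1c18 had the smallest ratio, 2.54 (1.5 to 4.42), and 1700028J19Rik had 6 WT and 39 KO UMIs, a ratio of 7.57 (3.18 to 21.9). In cluster 8, where Igfbp4 and Drc1 passed both the minimum and a ratio of 2 against 3.05% of genes, Igfbp4 stood at 13.8 CPM in WT and 200 CPM in KO, a ratio of 14.5 (11.8 to 17.8). Drc1 stood there at 10.4 and 57.2 CPM, a ratio of 5.48 (4.21 to 7.17). Jaml had 7 WT and 41 KO UMIs in cluster 8, a ratio of 15.3 (6.81 to 40.5).

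**Figure D2:**
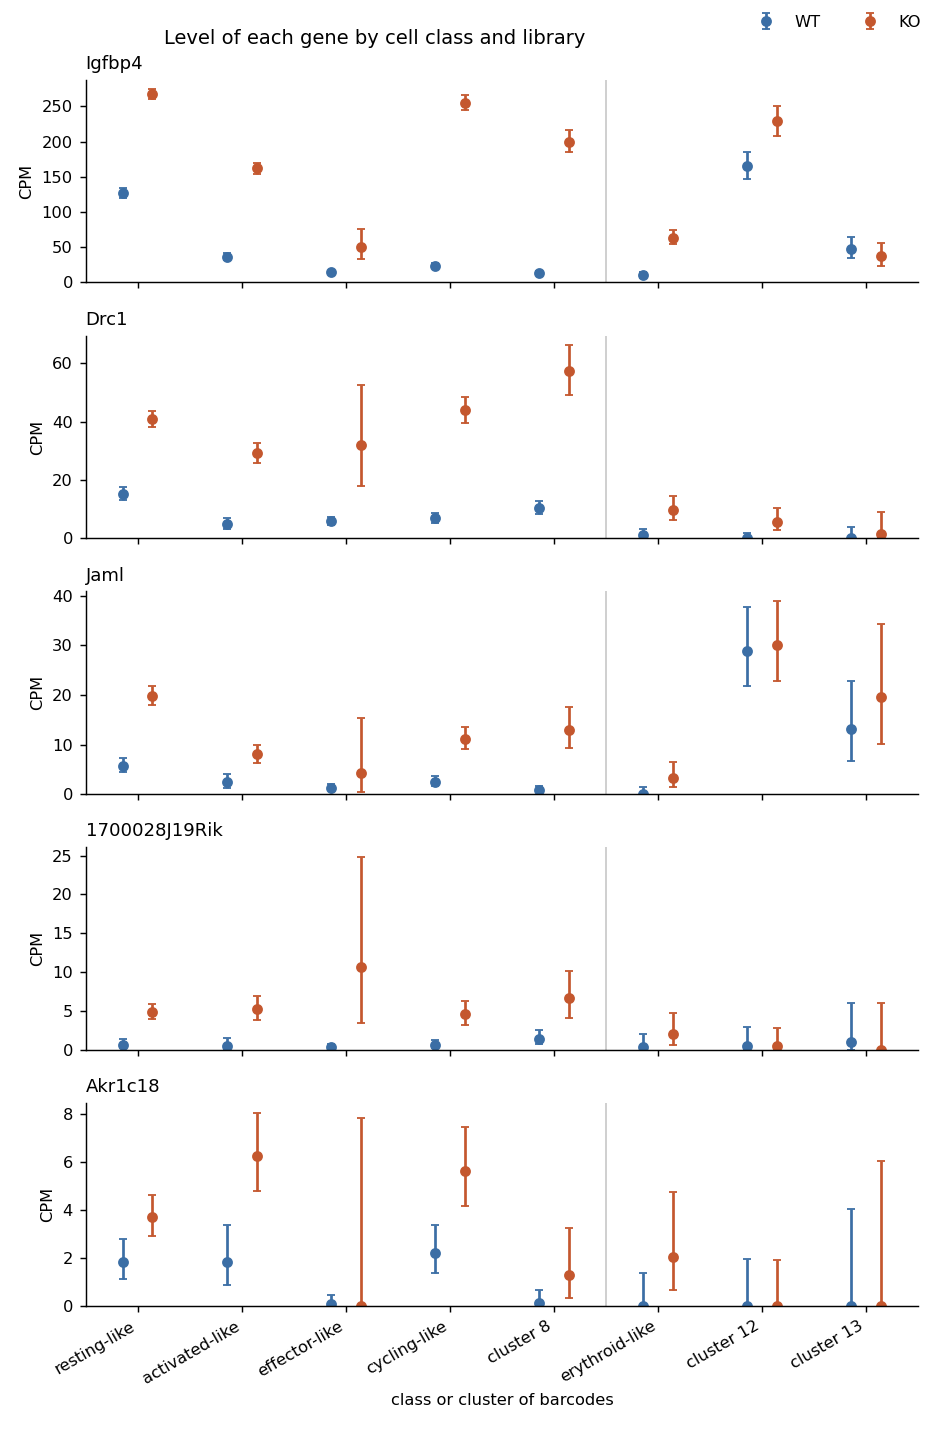
Level of each gene in CPM (linear axes from 0, a different scale in each panel) in the Treg classes and cluster 8, and, right of the grey line, in other lineages, for WT (blue) and KO (orange). Points are summed UMIs of 1 library, bars are exact Poisson 95% intervals that cover counting error only, and clusters 12 and 13 are the neutrophil-like clusters, where the WT and KO levels of Jaml overlap.

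Seen within each library, Igfbp4 followed cell state in WT more steeply than in KO. Relative to its own resting Treg-like level, WT Igfbp4 was 0.288 times as high in activated, 0.190 (0.165 to 0.218) in cycling-like, 0.114 in effector Treg-like and 0.109 in cluster 8 barcodes. The same KO values were 0.606, 0.954 (0.908 to 1.0), 0.191 and 0.748, so that KO cycling-like barcodes held nearly the resting level. Drc1 had WT values of 0.315, 0.452, 0.383 and 0.688 and KO values of 0.717, 1.08, 0.784 and 1.40 in that order. Over the 7 T-lineage clusters with at least 50 barcodes in each library, Igfbp4 spanned 9.46-fold in WT and 5.30-fold in KO, and Drc1 4.76-fold and 1.96-fold. The order of Igfbp4 levels was resting, activated, cycling, then effector and cluster 8 in WT, and the last pair (14.5 and 13.8 CPM) had overlapping intervals. In KO the resting (267 CPM, 261 to 274) and cycling-like (255 CPM, 245 to 266) levels also overlapped. Erythroid-like barcodes, the background for RNA of other cells, stood at 0.0823 of the resting Igfbp4 level in WT and 0.237 in KO. The effector Treg-like values of Igfbp4 (0.114 and 0.191) were near these, as was cluster 8 in WT (0.109).

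The size of the cycling-like ratio depended on which WT barcodes were called cycling. With finer clusters (Leiden resolution 1.0 in place of 0.5), 171 of the 590 WT and 777 of the 792 KO barcodes stayed in a cycling-like cluster, and 419 WT and 10 KO barcodes went to a cluster led by 1500009L16Rik, Gzma, Cxcr3, Gzmb and Klrg1 together with histone genes. In the finer cycling-like cluster Igfbp4 stood at 84.9 CPM in WT and 260 CPM in KO, a ratio of 3.07, and the Akr1c18 ratio turned, to 0.495 (0.291 to 0.871). In the separated effector and histone cluster WT Igfbp4 stood at 10.6 CPM. For this reason T-lineage barcodes, thinned to 1000 UMIs each, were also grouped by how many UMIs they held of the effector list and of the cycling list, a grouping chosen after the data had been seen. Among barcodes with no effector-list UMI, WT Igfbp4 stood at 133 CPM (109 to 162) with 0 to 2 cycling-list UMIs and at 71.4 CPM (32.7 to 136) with 6 or more. Among barcodes with 3 or more effector-list UMIs it stood at 26.2 CPM (18.4 to 36.3) and 21.0 CPM (11.8 to 34.6). KO Igfbp4 stood at 231 CPM (211 to 252) and 286 CPM (250 to 325) without effector-list UMIs, and at 194 CPM (164 to 228) and 330 CPM (286 to 380) with 3 or more. WT Igfbp4 was thus lowest in barcodes with 3 or more effector-list UMIs, with or without cycling-list UMIs, whereas KO Igfbp4 was at 194 CPM or above in every bin. The bins held unlike cells in the 2 libraries. Of the barcodes with 3 or more effector-list UMIs, 1227 of 2701 in WT (45.4%) but 58 of 1880 in KO (3.09%) were effector Treg-like. Of the KO barcodes, 580 were in resting cluster 1 and 551 in the shallow cluster 2. In the 58 effector Treg-like KO barcodes Igfbp4 stood at 34.5 CPM (4.18 to 125), on 2 UMIs, and in the WT ones at 14.7 CPM (8.69 to 23.2).

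Across these 9 bins the KO to WT ratio of Igfbp4 ran from 1.73 (1.40 to 2.16), in barcodes with no effector-list and at most 2 cycling-list UMIs, to 15.7 (9.30 to 28.7), in barcodes with 3 or more and 6 or more, which were drawn from different clusters as given above. Drc1 had ratios of 1.95 (1.04 to 3.97) and 17 (4.29 to 148) in the same bins, and the latter rests on 2 WT UMIs. Sorted instead by resting-list UMIs alone, Igfbp4 in WT stood at 36.6 CPM in barcodes with none and at 131 CPM in barcodes with 6 or more, while in KO it stood at 219 and 279 CPM. Its ratio was 5.98 (4.55 to 7.99) and 2.12 (1.39 to 3.34) at these ends.

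**Figure D3:**
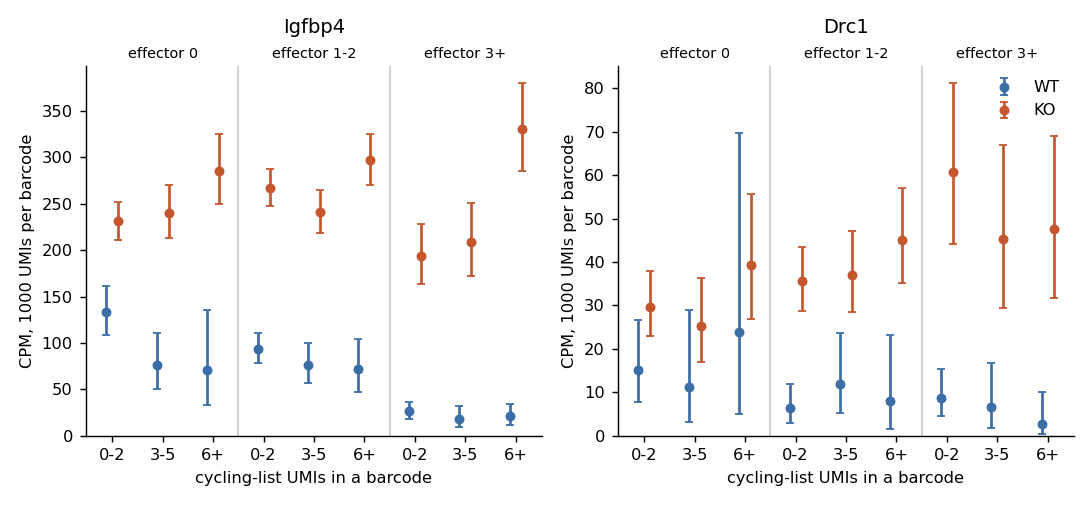
Igfbp4 and Drc1 in CPM, in T-lineage barcodes thinned to 1000 UMIs, by effector-list UMIs (3 blocks) and cycling-list UMIs (horizontal axis) in a barcode, for WT (blue) and KO (orange), with exact Poisson 95% intervals for counting error. WT Igfbp4 is at 133 CPM at the left and at 21.0 CPM at the right, while KO Igfbp4 lies between 194 and 330 CPM throughout.

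In other lineages the genes separated. Neutrophil-like barcodes (197 WT and 193 KO, with medians of 11890 and 9275 UMIs) held Igfbp4 at 127 CPM (114 to 141) in WT and 183 CPM (166 to 200) in KO, a ratio of 1.44 (1.25 to 1.66). Jaml stood there at 23.7 CPM (18.3 to 30.2) in WT and 27.6 CPM (21.5 to 34.9) in KO, a ratio of 1.16 (0.819 to 1.65). Neither passed a ratio of 2, which 0.653% of genes did in these barcodes. In WT the neutrophil-like level of Jaml was 841% of its T-lineage level and that of Igfbp4 275%, where the T cell genes Cd3e and Trbc2 stood at 12.1% and 10.3%. Both genes were thus far above the share that T cell genes had in neutrophil-like barcodes. Cluster 12 held most of them and was led by Lyz2, the basophil gene Mcpt8, and Prtn3, Mpo and Elane of early granulocytes. Igfbp4 stood there at 166 CPM in WT and 229 CPM in KO (ratio 1.38, 1.19 to 1.60). Jaml stood there at 28.9 and 30.1 CPM (ratio 1.04, 0.707 to 1.54). Cluster 13, led by Camp, Ngp and Lcn2 of later granulocytes, had Igfbp4 at 48.1 CPM in WT and 37.6 CPM in KO (ratio 0.782, 0.451 to 1.32). Drc1 had 0 UMIs in WT and 12 in KO neutrophil-like barcodes, at least 4.39-fold higher against a limit of 3 counts in WT. Its KO level there was 12.1% of its KO T-lineage level where Cd3e stood at 16.8%. Akr1c18 had 0 UMIs in both.

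Erythroid-like barcodes (295 WT and 488 KO, with medians of 4154 and 2580.5 UMIs), which should lack T cell transcripts, served as the background for RNA of other cells. Igfbp4 stood there at 10.5 CPM in WT and 63.5 CPM in KO, a ratio of 6.07 (4.04 to 9.44), and these levels were 22.7% and 26.7% of those in T-lineage barcodes. Cd3e stood at 17.2% and 25.8% and Trbc2 at 13% and 27.0%, with intervals that overlapped that of Igfbp4 in KO (22.6 to 31.3). In WT the Igfbp4 interval (15.0 to 32.8) overlapped that of Cd3e (14.9 to 19.8) and lay above that of Trbc2 (12.2 to 13.9). In KO, Drc1 stood at 25.1% and Jaml at 22.5%. The small B lineage-like cluster (44 WT and 33 KO barcodes) had 3 and 31 UMIs of Igfbp4, a ratio of 14 (4.37 to 71.6). Its KO level there was 90.9% (61.7 to 129) of that in T-lineage barcodes, where Cd3e stood at 24.5% (13.4 to 41.1) and Trbc2 at 30.3% (24.7 to 36.8). In this cluster KO Igfbp4 was thus above the share of the T cell genes. The part of RNA from other cells in the T-lineage levels was not tested.

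**Figure D4:**
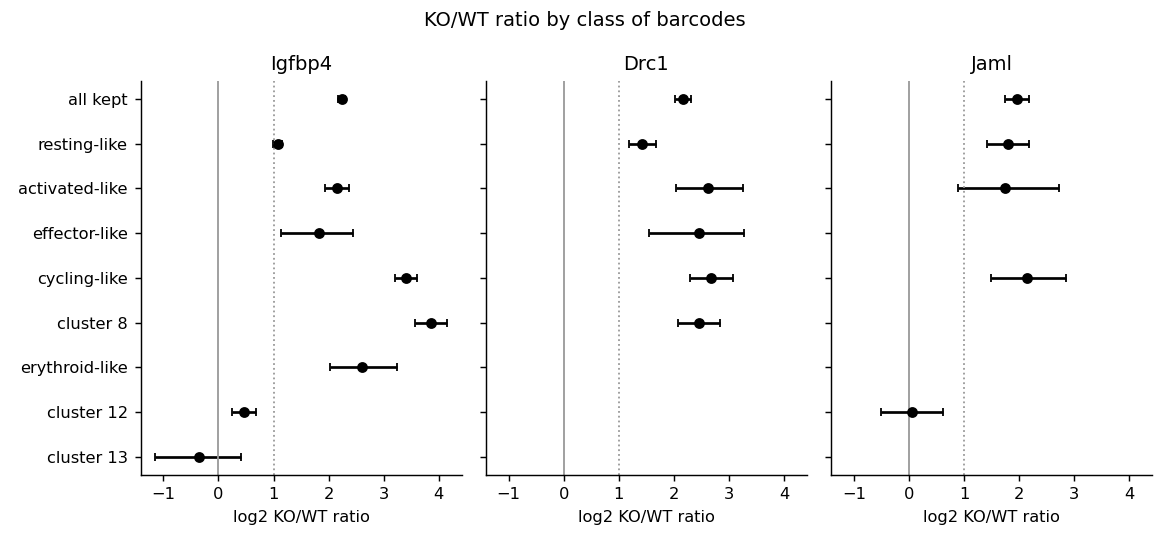
log2 KO/WT ratio of Igfbp4, Drc1 and Jaml in all kept barcodes and in each class or cluster with at least 50 UMIs of the gene and at least 1 in each library, with exact conditional binomial 95% intervals for counting error; solid line, no difference, and dotted line, a ratio of 2. Igfbp4 is past a ratio of 2 in the Treg classes and cluster 8 and below it in neutrophil-like clusters 12 and 13, where Jaml of cluster 12 lies at 0.06 on the log2 scale.

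Counted as barcodes rather than molecules, and with T-lineage barcodes thinned to 1000 UMIs (1081 WT and 1097 KO barcodes were shallower and left out), Igfbp4 was found in 5.61% of WT (5.06 to 6.20) and 20.7% of KO barcodes (19.9 to 21.4). Before thinning these had medians of 5709.5 and 2971 UMIs. In erythroid-like barcodes thinned alike, with medians of 5502 and 2713 UMIs, the shares were 1.24% (0.257 to 3.59) and 10.6% (7.97 to 13.8). Drc1 was found in 0.855% of WT and 3.63% of KO T-lineage barcodes, against 0 of 241 WT and 1.74% of KO erythroid-like barcodes (0.752 to 3.39). For 0 of 241 a limit of 3 counts is a share of 1.24%, and the exact interval reaches 1.52%. Jaml was found in 0.311% and 1.42% of T-lineage barcodes, and in 0 of 241 WT and 0.434% of KO erythroid-like barcodes (0.0526 to 1.56). 1700028J19Rik (0.0932% and 0.493%) and Akr1c18 (0.0777% and 0.510%) were found in under 1% of T-lineage barcodes in either library, and for Akr1c18 the KO erythroid-like share, 0.651% (0.134 to 1.89), was no lower.

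Few barcodes held more than 1 of the 5 genes at this depth. In KO, 23.8% of thinned T-lineage barcodes held exactly 1, 1.43% held 2 and 0.0251% held 3, and in WT 6.48% held 1 and 0.233% held 2. KO barcodes with Jaml held Drc1 in 7.06% (3.70 to 12) of cases and KO barcodes without Jaml in 3.58% (3.25 to 3.93). KO barcodes with Jaml held Igfbp4 in 27.6% (21.1 to 35.0) and those without it in 20.6% (19.8 to 21.3). Barcodes with and without Drc1 held Igfbp4 in 22.1% (18.3 to 26.3) and 20.6% (19.9 to 21.3) of KO cases, but in 21.8% (11.8 to 35.0) and 5.47% (4.92 to 6.06) of WT cases, the former on 12 of 55 barcodes. At this depth the KO intervals overlapped and the WT intervals did not. Within WT resting Treg-like barcodes at 1000 UMIs they did not overlap either, at 27.8% (14.2 to 45.2), on 10 of 36 barcodes, and 9.37% (8.30 to 10.5). Thinned to 2000 UMIs, the shares over all WT T-lineage barcodes were 17.1% (10.5 to 25.7) and 9.27% (8.54 to 10.0). Within WT resting Treg-like barcodes they overlapped at 2000 UMIs, at 21.9% (12.5 to 34.0) and 17.0% (15.5 to 18.6), so that the reading there depended on depth.

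Akr1c18 differed from 1700028J19Rik in how its molecules were spread. Of the 273 KO UMIs of Akr1c18, 129 (47.3%) lay in 23 barcodes with 3 or more each, and of the 55 WT UMIs, 31 (56.4%) lay in 5 barcodes, with highest counts of 17 and 11 in a barcode. The 272 KO UMIs of 1700028J19Rik lay in 262 barcodes, and a single barcode held 3. The 28 Akr1c18-rich barcodes were spread over resting Treg-like (8 KO and 1 WT), activated Treg-like (8 and 1) and cycling-like clusters (6 and 3), with 1 KO barcode in cluster 2. They held Cd3e at 1.19 times (0.968 to 1.44) the level of KO T-lineage barcodes without Akr1c18, and Mcpt8, Cpa3 and Kit, genes of basophils and mast cells, had 0 UMIs in them. Akr1c12, a neighbouring gene of the same family, had 28 UMIs over 10 of the 28 barcodes, 131 CPM against 10.9 CPM in KO T-lineage barcodes without Akr1c18, a ratio of 12 (7.92 to 17.6). Akr1c13 had 14 UMIs over 8 barcodes, a ratio of 3.04 (1.66 to 5.12), and Igfbp4 was at 1.17 times (0.887 to 1.51). These genes were examined after the barcodes had been seen.

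Genes of the same families and pathways were compared from lists. Over all 12727 genes with at least 50 UMIs, 1.61% passed a ratio of 2 upward and 5.41% downward, and the median ratio was 0.94. Of 8 measured genes of the insulin-like growth factor axis, with at least 50 UMIs, 1 passed a ratio of 2 upward and 2 downward, with a median ratio of 1.17. The ligand Igf2 (2.46) and the scavenging receptor Igf2r (1.61) had the highest ratios, and the binding proteins Igfbp7 (0.420) and Igfbp6 (0.169) the lowest. Of 8 measured adhesion genes chosen for Jaml, 0 passed upward and 3 downward, with a median of 0.672. Itgb2 (1.19) and the kinase subunit Pik3cd (1.09) were highest, and the integrin chains Itga4 (0.343) and Itgb1 (0.129) lowest, the latter also an effector marker. Of 9 measured axoneme and nexin-dynein genes, 0 passed upward and 2 downward, with a median of 0.776. Foxj1, the transcription factor of motile cilia, had a ratio of 1.43 on 38 KO and 25 WT UMIs, and Efcab2 of 1.01, whereas Iqcg (0.286) and Rsph1 (0.183) were lowest. With 1.61% of all genes passing upward, 0 of these 9 is near that share, and nothing about Drc1 is read from it. Of 15 measured genes of the Akr1c family and steroid dehydrogenases, only Akr1c12 (2.45) passed a ratio of 2, followed by Akr1c13 (1.81), with Srd5a1 (0.789) and Akr1b10 (0.784) lowest and a median of 1.02.

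Lists of wider programmes were read against the same shares. Of 25 measured p53 targets, 5 passed a ratio of 2 upward and 0 downward (median 1.31), led by Phlda3 (8.24) and the cell cycle inhibitor Cdkn1a (4.64), with Sesn1 (0.727) and Apaf1 (0.691) lowest. Of 19 integrated stress response genes, 5 passed upward and 0 downward (median 1.51), led by Cth (25.4, on 3 WT UMIs) and Trib3 (6.21), with Atf3 (1.08) and Cebpb (0.869) lowest. Of 18 interferon-stimulated genes, 7 passed upward and 0 downward (median 1.94), led by Ifit3b (4.79) and Ifit3 (4.54), with Oas3 (1.28) and Ifitm3 (1.23) lowest. Of 24 naive and quiescent T cell genes, 3 passed upward and 0 downward (median 1.36), led by Ly6c1 (3.0) and the lymph node homing receptor Ccr7 (2.57), with Il7r (0.745) and Btla (0.733) lowest. In resting Treg-like barcodes, where 0.799% of genes passed upward and 2.8% downward and the median was 0.92, 0 of the 24 naive genes passed in either direction (median 0.971), whereas 10 of 24 passed upward in cycling-like barcodes (median 1.68) and 10 of 23 in cluster 8 (median 1.79), against 2.88% and 3.05% of genes there. Among the named Treg and cycling-like classes and cluster 8, these were the barcodes where Igfbp4, itself a naive T cell marker, also had its highest ratios. Genes of the other wider lists passed upward there as well. In cycling-like barcodes 8 of 22 p53 targets, 5 of 14 stress response and 8 of 14 interferon-stimulated genes did. In cluster 8 these were 7 of 22, 5 of 14 and 7 of 11. Resting Treg-like barcodes, where no naive gene passed, had 3 of 23 p53 targets and 3 of 14 stress response genes past a ratio of 2 upward. They also had 11 of 16 interferon-stimulated genes past it (median 2.44). At finer resolution 419 WT and 10 KO cycling-like barcodes left for the effector and histone cluster, and the Igfbp4 ratio was then 3.07. Whether any list goes with Igfbp4 was not tested.

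**Figure D5:**
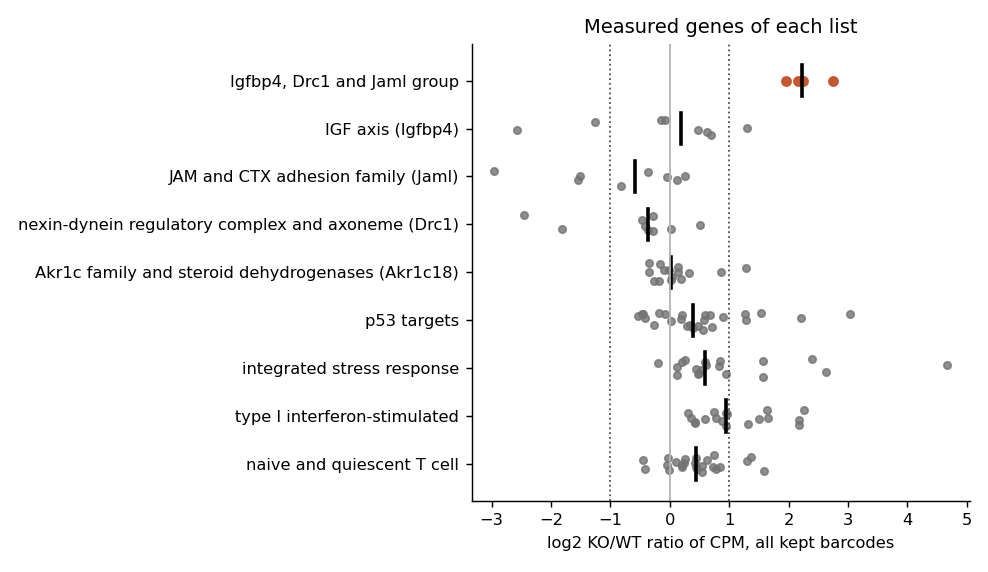
log2 KO/WT ratio over all kept barcodes of the 5 genes (orange, top row) and of every measured gene of 8 lists (grey points, spread vertically for legibility), with the median of each row as a black bar and dotted lines at a ratio of 2 in either direction. The lists chosen for the relatives of Igfbp4, Jaml, Drc1 and Akr1c18 centre between 0.672 and 1.17 as ratios, and the interferon list at 1.94.

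Across the 12 KO clusters with at least 50 barcodes, the level of Drc1 went with that of 1700028J19Rik (Pearson r = 0.897 on the log2(CPM + 1) scale), and Igfbp4 with Drc1 (r = 0.627) and Akr1c18 (r = 0.616), whereas Jaml did not go with Drc1 (r = -0.0485) or 1700028J19Rik (r = -0.266). The clusters share 1 library and differ in depth and lineage, so these are descriptions. Some KO values of 1700028J19Rik rest on few UMIs. It had 5 in cluster 4, its highest level, 1 in clusters 11 and 12 and 0 in cluster 13. Among all 10592 other genes, those most like Igfbp4 were Gm9888 (r = 0.954), Sardh, Depdc5, Maged2 and Hdac6 (r = 0.929). Those most like Drc1 were Gm19412 (r = 0.980), the X-linked Xlr4a and Xlr4b, Gm13546 and Lrig1 (r = 0.943). Those most like Jaml included Vav1 (r = 0.95), Stard3, Mpp5 and Usp22 (r = 0.927). 1700028J19Rik was most like Xlr4a (r = 0.949), Tnfsf10, Nmb, Fhl2 and Cyb5a (r = 0.933), so that Xlr4a stood near both genes. Akr1c18 was most like D630039A03Rik (r = 0.893), Gm26771, Fhl3, Nr1d2 and Ptch1 (r = 0.856). These lists depended on the measure, since ranking by Spearman correlation kept 0 of the 5 genes for Igfbp4 and Jaml, 1 for Drc1 and 1700028J19Rik and 2 for Akr1c18.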

How the data were processed

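Splenic YFP+ Tregs were profiled by droplet single-cell RNA sequencing (10x Genomics Chromium Single Cell V3), with 1 WT and 1 KO library. The authors deposited raw counts of UMIs for each gene in each barcode. Per the labels, they came from Cell Ranger 5.0.1 and the mm10 build. The study's gene, mitochondrial and doublet filters had not been applied to them. Barcodes under 300 genes or over 5% mitochondrial UMIs were left out, and doublets were not removed except as an alternative (Scrublet of scanpy 1.11.5, the top 5% of WT and 8% of KO scores). The 5 genes and the lists were chosen with earlier results of these data known.

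Counts were scaled to 10000 UMIs per barcode and log-transformed, and 2000 variable genes, without the 5 genes, Zfp335, sex-linked and mitochondrial genes, were reduced to 30 principal components. A shared neighbour graph over 20 neighbours (scikit-learn 1.9.0) was clustered by the Leiden method (igraph 0.11.9, resolution 0.5). A T-lineage cluster needed 50% of the median level of T cell genes. A raised marker was 1.5-fold over the median of the other clusters (1 CPM added) and found in 10% of barcodes. A class name needed at least 3 raised markers and at least 1 marker among the 10 leading genes. T-lineage names also needed at least 50% of their markers raised and more leading markers than any other marker list. A T-lineage cluster that reached 50% for more than 1 T cell class stayed unnamed. The rule was made with the data in view.

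UMI sums of each class and library were converted to CPM. Intervals were exact at 95%: Poisson for sums, conditional binomial for ratios and Clopper-Pearson for shares (scipy 1.17.1). They cover counting error only, and no test was run. A gene counted as past 2-fold at a ratio of 2 or more, among genes with at least 200 UMIs over both libraries, or 50 in classes and lists. A count of 0 was given a limit of 3 counts. The functions were tested on simulated data. Named genes were the 5 genes, Zfp335, the 5 genes most correlated with each over KO clusters (1 of them is not reported here), and the 2 highest and 2 lowest measured genes of each list; markers, Akr1c12, Akr1c13 and others named with a class or a group of barcodes were added. Alternatives changed the filters, the clustering, the scaling and the depth.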

Additional observations from a re-analysis of the deposited data

Results flagged for a closer look

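The 4364 KO and 6468 WT barcodes left out for more than 5% mitochondrial UMIs, which no comparison above used, also held the 5 genes at higher levels in KO. In them the KO to WT ratio was 4.24 (3.84 to 4.69) for Igfbp4 and 4.10 (3.12 to 5.45) for Drc1. It was 4.49 (3.15 to 6.52) for Jaml. It was 12.9 (4.66 to 49.7) for 1700028J19Rik, on 4 WT UMIs, and 15.9 (3.94 to 139) for Akr1c18, on 2 WT UMIs. The WT library had lost 44.6% and the KO library 24.1% of its barcodes to this filter. With 1 library per genotype no group had 4 samples, so no sample could be set apart from others of its kind.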

How the results depend on the processing

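No paired analysis was possible because each genotype had 1 library and the labels carry no shared replicate numbers, and no replicate could be left out. Over all kept barcodes the 5 genes had a median log2 KO to WT ratio of 2.22, which ran from 2.03 to 2.30 under all 8 alternatives, and all 5 genes stayed past 2-fold. The ratio ran from 3.93 to 4.97 for Igfbp4, 4.09 to 4.72 for Drc1, 3.28 to 4.09 for Jaml, 4.69 to 7.30 for 1700028J19Rik and 4.04 to 6.57 for Akr1c18. In resting Treg-like barcodes the median was 1.43 and moved to 1.05 in cluster 1 alone, an alternative chosen after seeing the data, with 3 genes past 2-fold (2.35% of genes with at least 50 UMIs). In cluster 3 alone 3 genes were past 2-fold with no minimum, and 2 of the 3 with at least 50 UMIs (1.78% of genes). Clusters built without the marker genes gave 4 genes past 2-fold in resting Treg-like barcodes, and no cycling-like cluster could then be named. By class, 164 of 187 ratios moved by less than their counting interval, 21 moved by more and 2 with intervals clear of 1 turned: 1700028J19Rik in effector Treg-like barcodes was 0 after thinning, on single UMIs, and Akr1c18 in cycling-like barcodes was 0.495 (0.291 to 0.871) at resolution 1.0. Of ratios whose interval included 1, Jaml in neutrophil-like barcodes reached 0.890, 1700028J19Rik 0.929 in erythroid-like and 3.42 in neutrophil-like, and Akr1c18 29.5 in effector Treg-like barcodes, so these also crossed 1. The cycling-like ratio of Igfbp4 ran from 3.07 to 10.8 over the settings and that of Drc1 from 2.87 to 6.43. The 1.03% of genes past 2-fold became 1.61% at a minimum of 50 UMIs and 8.7% at 1. Counting these values with the shares of barcodes, the co-detection shares and the lists of most similar genes under other thinning depths or Spearman correlation, 67 moved and 20 did not. Depth limits 1700028J19Rik and Akr1c18, with 38 and 55 WT UMIs, and all KO effector Treg-like values. Differences between mice, libraries or sorts cannot be told apart from genotype here.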
